A study of Mus musculus with 4 samples.

Results

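The genes described here are the BMP-SMAD targets and antagonists, 10 genes taken by name from the 13577 genes listed in a bulk RNA-Seq table of E11.5 nasal process (NP) tissues. They are the 4 ID genes (*Id1*, *Id2*, *Id3* and *Id4*), the inhibitory SMADs *Smad6* and *Smad7*, the signal transducer *Smad9*, and 3 genes that restrain BMP signaling at or outside the cell surface (*Nog*, *Bambi* and *Grem1*). The study asked how a constitutively active BMP type I receptor in cranial neural crest cells (CNCCs) alters the midface. The libraries comprised 2 titled control and 2 titled mutant, and each group had replicates numbered 1 and 2. The mutants, here ca-*Acvr1(A11)*, carried a CAG-driven, Cre-dependent transgene for constitutively active ACVR1 (line A11) together with *P0-Cre*, a Cre line used to reach neural crest. Per the study's methods, controls also carried *P0-Cre* but lacked the transgene, and all mice were on a mixed background. NP tissue contains epithelium and other cells beside CNCC-derived mesenchyme, and a Cre restricted to the crest leaves those without the active receptor.

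The sample labels disagree on the groups. In the genotype entries the libraries titled control have ca-*Acvr1(A11)*;*P0-Cre*, and those titled mutant have *P0-Cre*. Titles were followed here, and every direction below turns over if the genotype entries are the right ones. *Acvr1* had 21.5 and 23.1 CPM (the read count scaled to the library total) in controls against 24.1 and 12.6 CPM in ca-*Acvr1(A11)* mutants, so the groups overlapped. Whether transcripts of the transgene are counted on the *Acvr1* row is not given in the sources used here, and this gene leaves the labels unchecked.

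BMP ligands bind type I and type II receptors at the cell surface, and the type I receptor, ACVR1 among others, phosphorylates SMAD1, SMAD5 and SMAD9. These enter the nucleus with SMAD4 and act on target genes, of which the ID genes are the best known. ID proteins are helix-loop-helix proteins without a DNA-binding region that hold E proteins in inactive pairs. Cells also answer BMP with its own inhibitors: SMAD6 and SMAD7 act on the receptors and SMADs, BAMBI is a pseudoreceptor without a kinase, and Noggin and Gremlin 1 bind the ligand outside the cell. For this reason the levels of these genes are widely read as a record of BMP-SMAD signaling.

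SMADs recognize short elements in target promoters, and the sequences near the start of 6 of the 10 genes were searched for a pair of them. GGCGCC is a GC-rich SMAD element and GTCTAGAC is the palindromic SMAD-binding element. Each reads the same on both strands, and no match of one overlapped a match of the other. The window was 250 bases before to 50 bases after the RefSeq transcription start in build GRCm38.p6. GGCGCC occurred in *Id2* (231 bases before the start), *Id4* (148 bases), *Grem1* (78 bases) and *Smad9* (51 bases), and was not found in the windows of *Id3* and *Smad6*. For *Id3* the 250 bases before the RefSeq start lie wholly inside exons that GENCODE gives the gene. Of 32851 RefSeq promoters 11.9% hold it, and of the 13518 promoters of listed genes 20.7%. GTCTAGAC occurred in *Smad6* alone among the 6, where it spans the start, with 4 bases before it and 4 bases past it. It is in 70 of all promoters (0.213%). A match is a description of these letters and was not tested for binding. *Id1* and *Nog* were not matched, and *Smad7* and *Bambi* were not searched. The sequences of *Id2*, *Id4* and *Smad6* are shown because these genes carry the contrasts described below, with the match in capitals and each read 5′ to 3′ on the strand of the gene. *Id2* is from chr12:25096254-25096342 (minus strand), *Id4* is from chr13:48260866-48261115 (plus strand) and *Smad6* from chr9:64022056-64022309 (minus strand). The stretch of *Id2* precedes the RefSeq start, but lies inside the longer span that GENCODE gives the gene and outside its exons, and was ended where an annotated exon begins.
Id2: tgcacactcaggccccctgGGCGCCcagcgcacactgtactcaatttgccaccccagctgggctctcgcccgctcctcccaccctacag
Id4: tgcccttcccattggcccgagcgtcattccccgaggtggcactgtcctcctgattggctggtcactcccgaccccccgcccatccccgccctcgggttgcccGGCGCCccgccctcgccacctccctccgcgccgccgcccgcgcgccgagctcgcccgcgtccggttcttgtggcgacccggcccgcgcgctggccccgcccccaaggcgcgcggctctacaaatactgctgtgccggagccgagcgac
Smad6: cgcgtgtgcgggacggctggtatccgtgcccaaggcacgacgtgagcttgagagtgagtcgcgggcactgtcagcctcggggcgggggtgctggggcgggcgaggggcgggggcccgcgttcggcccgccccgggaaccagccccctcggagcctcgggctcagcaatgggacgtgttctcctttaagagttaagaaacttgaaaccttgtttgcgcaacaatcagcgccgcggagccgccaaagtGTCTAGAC

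The libraries held from 1956831 to 2408827 reads, and 1 read was worth between 0.415 and 0.511 CPM. They were made with a 3′ kit, which yields reads near the poly(A) tail in a number that does not grow with transcript length. CPM can therefore be set side by side between genes, within the limits of how well each 3′ end is primed. The r between replicates, over 12462 genes, was 0.976 for control and 0.978 for ca-*Acvr1(A11)*. All values of the 10 genes were whole numbers of reads, and all 10 passed the filter of a mean above 1 CPM. No label says that the replicates came from separate embryos or pools, so p-values measure the spread between these libraries, which may be technical. In bulk tissue, fewer cells of a type and less RNA per cell cannot be told apart.

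None of the 10 genes passed the test between groups. Both ca-*Acvr1(A11)* libraries lay below both control libraries for 3 of them and above both for 2, beside 16.8% and 21.9% of all genes. At an adjusted p under 0.05 in limma, 0 of 10 were called, against 0.899% of all 12462 genes tested. At an unadjusted p under 0.05, 7 of 10 passed, against 9.55% of all genes. These were *Id1*, *Id2*, *Id3*, *Smad6* and *Smad7* on the lower side (background 4.12%) and *Id4* and *Nog* on the higher side (background 5.42%). The 10 genes were chosen with earlier results of these data known, so a share set beside that of all genes is a description, not a test. edgeR (quasi-likelihood, reads recovered from the CPM steps) called 1 gene, *Id2* (background 1.2%), and limma-voom called 0 (background 0.818%). Both used the same libraries and had the same count of 7 unadjusted. DESeq2 called 0 (background 0.313%), with 2 unadjusted. The groups did not overlap for 5 of 10 genes, against 38.8% of all genes. The 3 on the lower side were *Id3*, *Smad6* and *Smad7* (background 16.8%). The 2 on the higher side were *Id4* and *Nog*, a share near that of all genes (21.9%). Differences are given as log2 fold changes, ca-*Acvr1(A11)* minus control, on the log2(CPM + 1) scale, with their standard error (SE). The median over the 10 genes was −0.49, beside 0.03 over all genes, with 7 genes below 0 and 3 above. Of all 12462 genes 5710 were below 0 and 6752 above. Among the 7, the groups overlapped for *Id1*, *Id2*, *Smad9* and *Grem1*, and *Smad9* and *Grem1* changed sign with a library left out. The values of *Id1*, *Id2*, *Id3*, *Smad6* and *Smad7* leaned on control replicate 2. Without it their log2 fold changes were all smaller in size, between −0.37 and −0.03, while those of *Id4* and *Nog* were 0.62 and 0.64. The smallest p of an exact permutation test on 2 libraries against 2 is 0.333, and the limma test of a single gene therefore leans on the spread it shares across genes. In simulated libraries limma called 11% of genes changed by 0.5 log2, so the absence of a call does not show equal levels. The simulation gave all genes the same relative spread and changed only genes of higher level. The 11% therefore does not describe *Smad9* and *Grem1*, or genes with widely differing replicates such as *Id1*, *Id2* and *Bambi*.

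**Figure D1:**
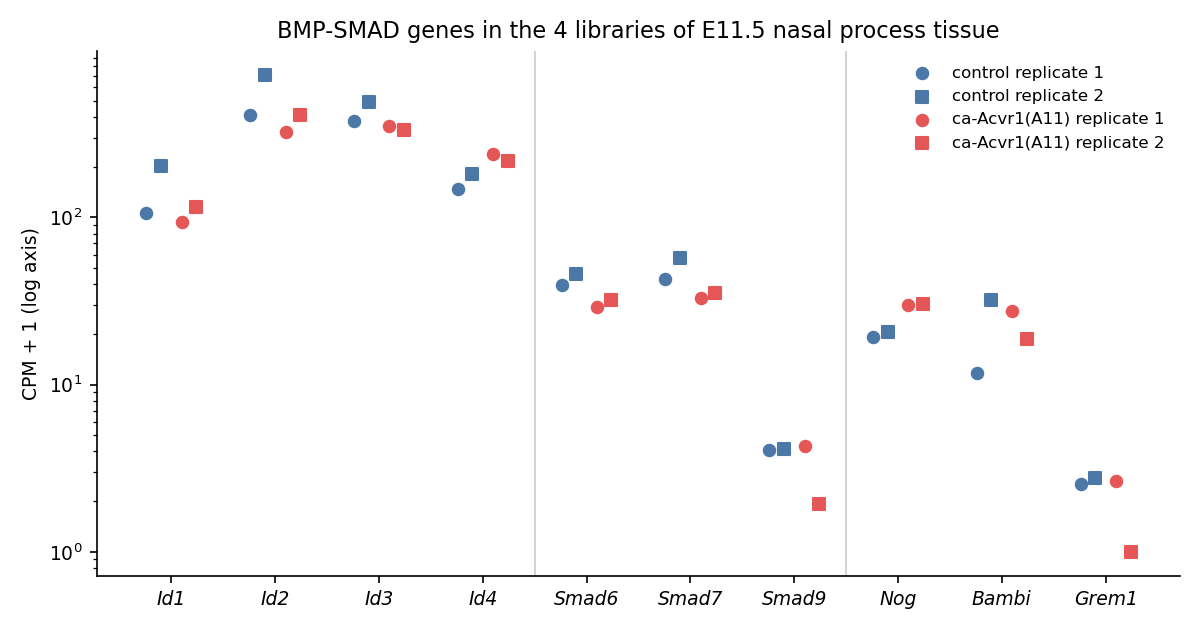
Level of each of the 10 genes in the 4 libraries, as CPM + 1 on a log axis, with control in blue, ca-*Acvr1(A11)* in red, circles for replicate 1 and squares for replicate 2. The red points lie below the blue ones for *Id3*, *Smad6* and *Smad7* and above them for *Id4* and *Nog*, and the control squares of *Id1*, *Id2* and *Bambi* stand well above the control circles.

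The order of levels was much the same in both groups. In control libraries the means ran from *Id2* (560.1 CPM) and *Id3* (433 CPM) through *Id4* (165 CPM) and *Id1* (154 CPM) to *Smad7* (48.9 CPM), *Smad6* (41.6 CPM), *Bambi* (20.9 CPM) and *Nog* (19.0 CPM), with *Smad9* (3.09 CPM) and *Grem1* (1.65 CPM) last. Within each of the pairs *Id2* and *Id3*, *Id4* and *Id1*, *Smad7* and *Smad6*, and *Bambi* and *Nog*, the control values overlapped. These neighbours were thus not ordered beyond their spread over libraries. Read within a library, *Id2* was above *Id3* and *Smad7* above *Smad6* in both controls. For *Smad7* and *Smad6* that was 82 against 75 reads in control replicate 1. *Id4* and *Id1*, and *Bambi* and *Nog*, switched order between the controls. In ca-*Acvr1(A11)* libraries the order differed in that *Nog* stood above *Bambi*. There *Nog* lay within the range of *Smad6*, while *Id4* was clear of *Id1*.

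**Figure D2:**
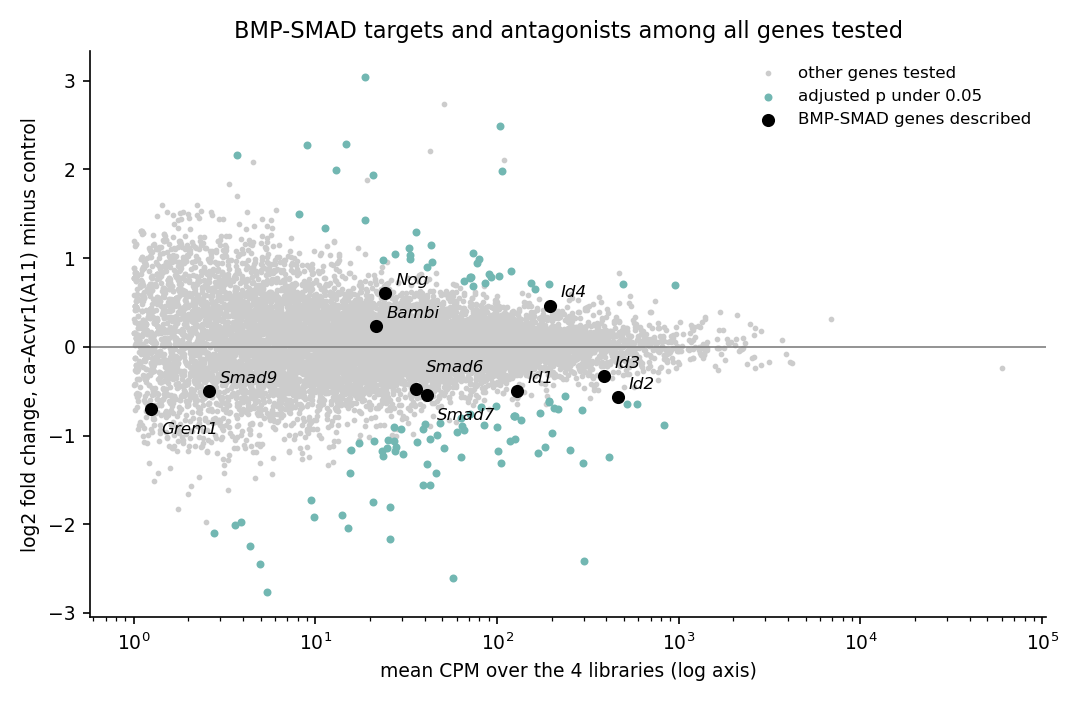
Log2 fold change (ca-*Acvr1(A11)* minus control, log2(CPM + 1) scale) against the mean CPM of the 4 libraries (log axis) for the 12462 genes tested, with the 10 genes in black and the 112 genes at an adjusted p under 0.05 in teal. The black points lie within the grey cloud or at its edge, 7 below the line at 0 and 3 above it.

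The ID genes did not share a direction: *Id1*, *Id2* and *Id3* were lower on average in ca-*Acvr1(A11)* libraries and *Id4* was higher. Their summed level was 1037 and 1587 CPM in controls against 1005 and 1071 CPM in ca-*Acvr1(A11)* mutants. Control replicate 2 was far above the other 3 libraries, which were close to each other.

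*Id1* (Entrez 15901, chr2:152736251-152737410 on the plus strand in the GENCODE annotation of GRCm38) is a widely used BMP readout. It was counted with 207 and 455 reads in control and 223 and 246 reads in ca-*Acvr1(A11)* libraries, or 106 and 202 CPM against 92.6 and 115 CPM. Control replicate 1 fell between the ca-*Acvr1(A11)* libraries, so the groups overlapped, and the control replicates differed 1.91-fold from each other. The means were 154 ± 68.0 and 104 ± 15.9 CPM (SD, n = 2 each), a log2 difference of −0.50 in limma (SE 0.20, 95% interval −0.91 to −0.09, adjusted p = 0.385). The value turned on the control libraries. Without control replicate 2 the log2 fold change was −0.03, and without control replicate 1 it was −0.96 with an adjusted p of 7.68e-06 from limma, the one call among 16 alternatives, over which the adjusted p reached 1.00.

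*Id2* (Entrez 15902, chr12:25093799-25097140, minus strand) was the most abundant of the 10. Its level was 406.3 and 714 CPM in controls against 323 and 406.6 CPM in ca-*Acvr1(A11)* mutants, from 795, 1608, 779 and 869 reads. Control replicate 1 and ca-*Acvr1(A11)* replicate 2 were nearly equal, and the overlap of the groups rests on that pair. The means were 560.1 ± 217 and 365 ± 58.9 CPM (SD, n = 2 each), or 65.2% of control, with a log2 difference of −0.57 in limma (SE 0.18, adjusted p = 0.187). Of the 10 genes it came closest to a call. Its log2 fold change was −0.65 in edgeR (adjusted p = 0.0459). It was −0.98 without control replicate 1 (adjusted p = 4.36e-09 from limma) and −0.73 without ca-*Acvr1(A11)* replicate 2 (adjusted p = 0.0269 from limma). Without control replicate 2 it was −0.16. Over 16 alternatives the adjusted p for *Id2* ranged from 4.36e-09 to 1.00 and 4 gave a call, the fourth with the replicate number as a block. The share of all genes called was itself 3.71% without control replicate 1.

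*Id3* (Entrez 15903, chr4:136143497-136145755, plus strand) had 378 and 489 CPM in controls against 351 and 334 CPM in ca-*Acvr1(A11)* mutants, from 739, 1102, 845 and 714 reads. Both ca-*Acvr1(A11)* libraries were below both control libraries, though only narrowly below control replicate 1. The means were 433 ± 78.9 and 342 ± 11.8 CPM (SD, n = 2 each), for a log2 difference of −0.33 in limma (SE 0.14, adjusted p = 0.446). This was the smallest difference among the ID genes. It became −0.51 without control replicate 1 (adjusted p = 0.0175 from limma, the lowest of 16 alternatives, which reached 1.00) and −0.14 without control replicate 2.

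*Id4* (Entrez 15904, chr13:48261228-48266026, plus strand), which is best known from neural progenitors and osteoblast differentiation, stood on the other side. It measured 147 and 182 CPM in controls against 238 and 215 CPM in ca-*Acvr1(A11)* mutants, from 288, 410, 573 and 460 reads. Both ca-*Acvr1(A11)* libraries were above both control libraries, and control replicate 2, the highest library for the other ID genes, was also the higher control here. The means were 165 ± 24.6 and 227 ± 16.0 CPM (SD, n = 2 each), or 138% of control, with a log2 difference of 0.46 in limma (SE 0.15, 95% interval 0.16 to 0.77, adjusted p = 0.192). Leaving out a library gave 0.31 to 0.62, and the value without control replicate 2 was called (adjusted p = 0.0192 from limma, the lowest of 16 alternatives, which reached 1.00, with 0.939% of all genes called). The annotation places the antisense genes *A330033J07Rik* and *Gm49291* over *Id4* on the opposite strand. Since the strand setting of the counting is not given in the sources used here, reads of *Id4* and of these genes cannot be told apart.

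Ratios within a library need no scaling between libraries, and they describe how *Id4* stood to the other ID genes. These ratios were chosen after the values had been seen and are given without a test. A gene with a higher mean set over genes with lower means gains share by construction. The share of *Id4* is therefore no evidence beyond the values of the single genes. *Id4* made up 14.2% and 11.47% of the reads on the ID genes in control and 23.7% and 20.1% in ca-*Acvr1(A11)* libraries. The share was higher in both ca-*Acvr1(A11)* libraries, with means of 12.8 ± 1.93% and 21.9 ± 2.53% (SD, n = 2 each). The share of *Id2* was 39.2% and 45.0% in control and 32.2% and 38.0% in ca-*Acvr1(A11)* libraries, without overlap. A larger share of *Id4* lowers the shares of the other ID genes, so this is not a separate difference of *Id2*. *Id2* over *Id3* overlapped between groups, at 1.08 and 1.46 in control and 0.922 and 1.22 in ca-*Acvr1(A11)* libraries. The shares of *Id1* and *Id3* overlapped between groups, from 9.21% to 12.7% and from 30.8% to 36.4% over the 4 libraries. *Id2* over *Id1* was steady, between 3.49 and 3.84 in every library, although *Id1* and *Id2* differed 1.91-fold and 1.76-fold between the control replicates. A ratio of this kind shows unequal difference, and does not say which of its genes differed.

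**Figure D3:**
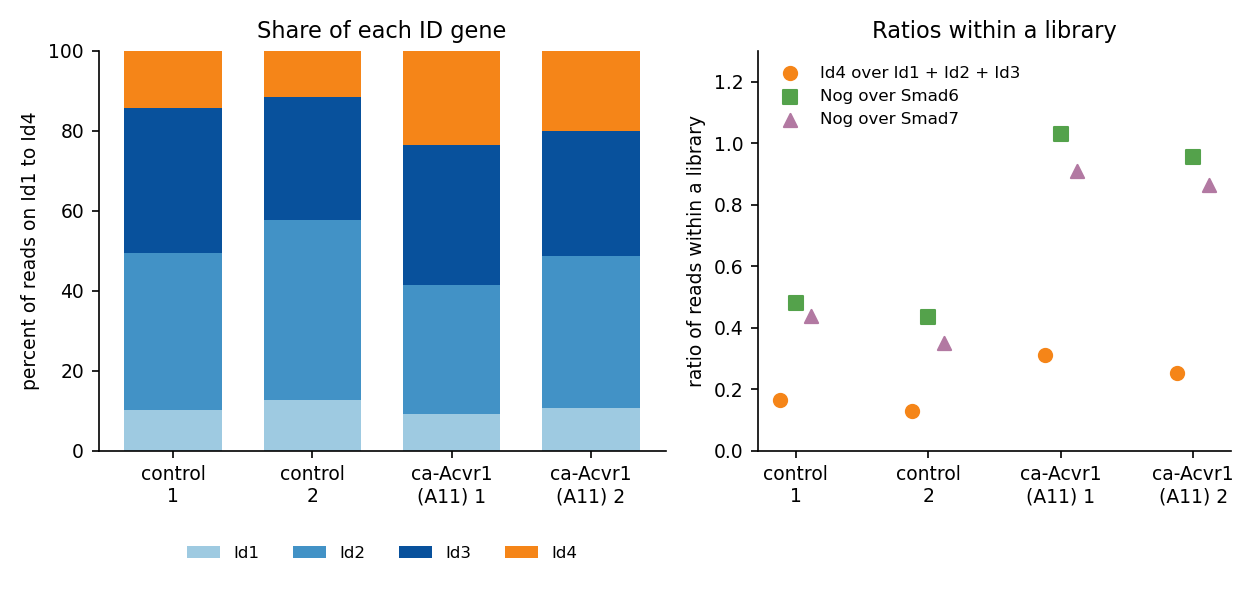
Left, stacked bars with the percent of reads on the ID genes that each of the 4 genes takes in each library. Right, ratios of reads within a library for *Id4* over the sum of *Id1*, *Id2* and *Id3* (circles), *Nog* over *Smad6* (squares) and *Nog* over *Smad7* (triangles), each higher in both ca-*Acvr1(A11)* libraries than in both control libraries.

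*Smad6* and *Smad7*, the feedback inhibitors inside the cell, were lower in both ca-*Acvr1(A11)* libraries than in both control libraries. *Smad6* (Entrez 17130, chr9:63953076-64022059, minus strand), which acts chiefly on the BMP branch, had 38.3 and 44.8 CPM in controls against 28.2 and 30.9 CPM in ca-*Acvr1(A11)* mutants. These rest on 75, 101, 68 and 66 reads. The groups were apart by more than the difference between replicates, with means of 41.6 ± 4.60 and 29.6 ± 1.88 CPM (SD, n = 2 each). The exact 95% Poisson intervals (counting error only) still overlapped. They were 30.1 to 48.0 CPM for control replicate 1 and 23.9 to 39.3 CPM for ca-*Acvr1(A11)* replicate 2. The limma log2 difference was −0.48 (SE 0.21, 95% interval −0.90 to −0.05, adjusted p = 0.441), and it stayed between −0.59 and −0.37 when any 1 library was left out.

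*Smad7* (Entrez 17131, chr18:75367529-75395935, plus strand) acts on the TGF-β branch as well. It had 41.9 and 55.9 CPM in controls against 32.0 and 34.2 CPM in ca-*Acvr1(A11)* mutants, from 82, 126, 77 and 73 reads. The ca-*Acvr1(A11)* libraries were close together and below control replicate 1, with control replicate 2 highest. The means were 48.9 ± 9.92 and 33.1 ± 1.55 CPM (SD, n = 2 each), or 67.6% of control, with a log2 difference of −0.54 in limma (SE 0.20, adjusted p = 0.335). Without a library it ranged from −0.74 to −0.33. The ratio of *Smad7* to *Smad6* was 1.09 and 1.25 in control and 1.13 and 1.11 in ca-*Acvr1(A11)* libraries, so within a library these 2 inhibitors kept a similar proportion.

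*Smad9* (Entrez 55994, chr3:54755582-54801257, plus strand), also called Smad8, encodes a receptor-activated SMAD whose own transcript is a BMP target. It was close to the limit of this depth, with 6, 7, 8 and 2 reads, or 3.07 and 3.11 CPM in controls against 3.32 and 0.936 CPM in ca-*Acvr1(A11)* mutants. One ca-*Acvr1(A11)* library was above both controls and the other below them. For the lowest library the exact 95% Poisson interval, which covers counting error only, ran from 0.113 to 3.38 CPM and so took in the other 3 libraries. The limma log2 difference of −0.50 (SE 0.48, adjusted p = 0.830) became 0.080 without ca-*Acvr1(A11)* replicate 2. A difference in *Smad9* was not detectable at this depth.

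Among the antagonists, *Nog* was higher in both ca-*Acvr1(A11)* libraries, *Bambi* was dominated by the spread between replicates and *Grem1* was barely counted. *Nog* (Entrez 18121, chr11:89300638-89302332, minus strand) encodes Noggin, a secreted protein that holds BMP ligands away from their receptors. It had 18.4 and 19.5 CPM in controls against 29.1 and 29.5 CPM in ca-*Acvr1(A11)* mutants, from 36, 44, 70 and 63 reads. The replicates of each group nearly coincided and the values of the groups did not overlap. The means were 19.0 ± 0.803 and 29.3 ± 0.297 CPM (SD, n = 2 each), or 154% of control. The limma log2 difference was 0.60 (SE 0.23, 95% interval 0.12 to 1.08, adjusted p = 0.354), and it was the least dependent on any 1 library among the 10 genes, at 0.56 to 0.64. Counting error was wider than the spread of the replicates. The exact 95% Poisson interval of control replicate 1 ran from 12.9 to 25.5 CPM and that of ca-*Acvr1(A11)* replicate 1 from 22.7 to 36.7 CPM. These intervals overlapped, so the close match of the replicates overstates how well each level is known.

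Within a library, *Nog* was also set against the inhibitory SMADs. Reads on *Nog* per read on *Smad6* were 0.480 and 0.436 in control and 1.03 and 0.955 in ca-*Acvr1(A11)* libraries, means of 0.458 ± 0.0314 and 0.992 ± 0.0529 (SD, n = 2 each). Per read on *Smad7* they were 0.439 and 0.349 in control and 0.909 and 0.863 in ca-*Acvr1(A11)* libraries. In each case the ca-*Acvr1(A11)* ratio was more than 2-fold the control ratio (2.17 and 2.25). The pair of ratios was picked after the values had been seen and was not tested. A gene with a higher mean set over genes with lower means gives a larger ratio by construction. These ratios therefore add nothing to the values of the single genes.

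*Bambi* (Entrez 68010, chr18:3507923-3516404, plus strand) varied most between the control replicates among the 10 genes. It had 10.7 and 31.1 CPM in controls against 26.6 and 17.8 CPM in ca-*Acvr1(A11)* mutants, from 21, 70, 64 and 38 reads. The ca-*Acvr1(A11)* libraries fell between the control libraries, which differed 2.90-fold. The means were 20.9 ± 14.4 and 22.2 ± 6.21 CPM (SD, n = 2 each), and the limma log2 difference of 0.23 (SE 0.33, 95% interval −0.44 to 0.90, adjusted p = 0.899) had no stable sign. It came to 0.96 when control replicate 2 was left out, to −0.50 when control replicate 1 was, and to −0.047 when ca-*Acvr1(A11)* replicate 1 was. The annotation also holds a pseudogene, *Bambi-ps1*, and how reads shared with it were treated is not given in the sources used here.

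*Grem1* (Entrez 23892, chr2:113746164-113758646, minus strand) encodes Gremlin 1, an antagonist best known from the limb bud. It had 3 and 4 reads in control and 4 and 0 reads in ca-*Acvr1(A11)* libraries, or 1.53 and 1.78 CPM against 1.66 and 0 CPM. The library without a read, with 0 of 2137027 reads, allows a level of up to 1.40 CPM (3 reads, counting error only), near the other 3 values. The limma log2 difference of −0.70 (SE 0.56, adjusted p = 0.772) depends on the pseudocount and became 0.0048 without ca-*Acvr1(A11)* replicate 2. A difference in *Grem1* was not detectable at this depth.

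**Figure D4:**
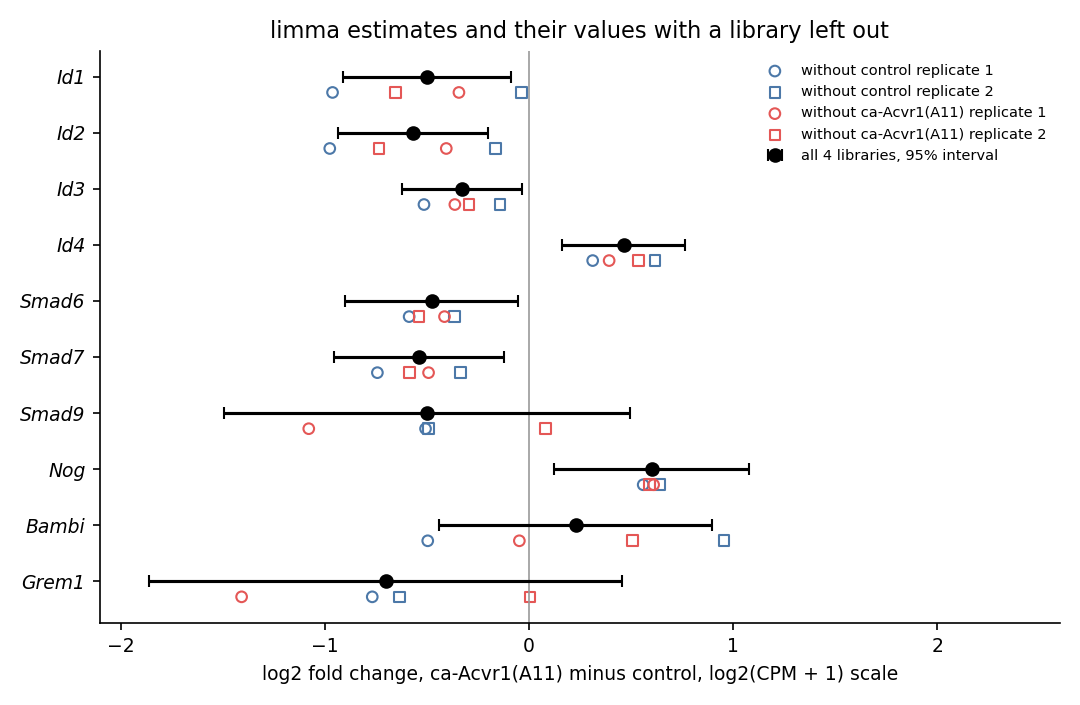
Log2 fold change of each gene (ca-*Acvr1(A11)* minus control, log2(CPM + 1) scale), with the limma estimate from all 4 libraries in black, its 95% interval as a bar, and open symbols for the estimate with 1 library left out. The symbols of *Id4* and *Nog* stay above 0 and those of *Id1*, *Id2*, *Id3*, *Smad6* and *Smad7* below it, while those of *Smad9*, *Bambi* and *Grem1* fall on both sides.

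The rest of the BMP pathway was read from lists of 81 further genes, of which 70 were listed and 67 tested. The lists were also chosen with earlier results of these data known, so their shares beside those of all genes are descriptions. At an adjusted p under 0.05 in limma 3 were called, all lower (*Snai2*, *Twist1* and *Twist2*), beside 0.594% of all genes on that side. Unadjusted, 4 of 67 passed on the higher side (5.42% of all genes) and 15 on the lower (4.12% of all genes), and the median log2 fold change was −0.09. Groups did not overlap for 13 genes on the higher side, a share near that of all genes (21.9%), and for 25 on the lower (16.8% of all genes).

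Of the ligands, 6 of 9 were tested and 0 were called, with a median log2 fold change of 0.00. At an unadjusted p under 0.05 in limma 1 passed, on the lower side (4.12% of all genes). *Gdf6*, a ligand of joints and of the skull, was the one that passed unadjusted, at 9.20 and 14.2 CPM in controls against 4.15 and 5.15 CPM in ca-*Acvr1(A11)* mutants (limma log2 difference −1.15, SE 0.36, adjusted p = 0.181). *Bmp4*, a main ligand of the facial processes, was at 41.9 and 38.6 CPM against 47.3 and 51.9 CPM (adjusted p = 0.688 from limma). *Bmp5* had a log2 difference of −0.53 in limma (adjusted p = 0.838). *Gdf6* was thus lower and *Bmp4* slightly higher in both ca-*Acvr1(A11)* libraries, neither past the test.

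All 8 receptors and co-receptors were tested and 0 were called, with a median of −0.00. Unadjusted in limma 1 passed, on the lower side (4.12% of all genes). *Bmpr1b*, a type I receptor, had 26.6 and 26.2 CPM in controls against 19.5 and 16.4 CPM in ca-*Acvr1(A11)* mutants (limma log2 difference −0.54, adjusted p = 0.472). *Bmpr1a*, its close relative, had a log2 difference of −0.22 and the type II receptor gene *Acvr2b* one of 0.25, with adjusted p-values of 0.709 and 0.726 from limma. *Acvr1* itself had a log2 difference of −0.33 in limma (adjusted p = 0.786). All 9 SMAD transducers and attenuators were tested, and 0 were called or passed unadjusted in limma, with a median of 0.01. Their 3 smallest p-values belonged to *Smad5*, a receptor-activated SMAD, and to *Tob1* and *Ski*, both SMAD corepressors, with log2 differences of −0.23, 0.25 and 0.18 and adjusted p-values from 0.655 to 0.814 from limma.

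Of 19 other extracellular modulators 13 were tested and 0 were called. Unadjusted in limma 2 passed, both on the lower side (4.12% of all genes). The median was −0.11, with 4 genes above 0 and 9 below. *Nbl1*, which encodes the BMP antagonist DAN, had 31.2 and 43.1 CPM in controls against 13.7 and 22.9 CPM in ca-*Acvr1(A11)* mutants, without overlap (limma log2 difference −1.01, SE 0.25, adjusted p = 0.0537). It was called in 9 of 16 alternatives, among them TMM scaling and edgeR (adjusted p = 0.0179, within a range of 0.00140 to 0.630 over the alternatives), and without ca-*Acvr1(A11)* replicate 1 the log2 fold change was −0.65. *Fstl1*, a follistatin-like protein of mesenchyme, had 198 and 251 CPM in controls against 139 and 164 CPM in ca-*Acvr1(A11)* mutants (limma log2 difference −0.56, SE 0.15, adjusted p = 0.0851). It was called in 5 of 16 alternatives, among them TMM and RLE scaling and edgeR (adjusted p = 0.0251, within a range of 0.000880 to 0.551), and without control replicate 2 the log2 fold change was −0.39. *Bmper* had a log2 difference of −0.70 in limma (adjusted p = 0.623). *Nbl1* and *Nog*, both genes for secreted BMP antagonists, thus stood on opposite sides of 0.

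Among other transcription factors known to answer BMP, 17 of 19 were tested, with 3 on the higher side (5.42% of all genes) and 7 on the lower (4.12% of all genes) at an unadjusted p under 0.05 and a median of −0.29. *Snai2*, a zinc-finger repressor of neural crest and its mesenchyme, was the one called. It fell from 49.6 and 69.3 CPM to 21.2 and 24.8 CPM (limma log2 difference −1.32, SE 0.21, adjusted p = 0.000687), and its groups were far apart. In all 16 alternatives it stayed called. *Dlx6*, a homeobox gene of the branchial arches, was at 1.53 and 0.888 CPM in controls against 5.81 and 4.21 CPM in ca-*Acvr1(A11)* mutants (limma log2 difference 1.45, adjusted p = 0.192). These values rest on 3, 2, 14 and 9 reads, with the controls close to the limit of this depth. *Gata2*, a zinc-finger factor, had a log2 difference of −0.69 in limma (adjusted p = 0.202).

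ID proteins act by taking E proteins away from tissue-specific bHLH factors, so both kinds of partner were read. The 3 E protein genes were all lower without overlap, as were 16.8% of all genes, and 0 were called. Unadjusted in limma 1 passed, on the lower side (4.12% of all genes). *Tcf12*, which encodes the partner of TWIST1 in the skull, had 360.3 and 377 CPM in controls against 316 and 275 CPM in ca-*Acvr1(A11)* mutants (limma log2 difference −0.32, adjusted p = 0.425). *Tcf3* and *Tcf4* had log2 differences of −0.22 and −0.17, with adjusted p-values in limma of 0.691 and 0.764.

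Of 16 tissue bHLH genes 11 were tested, and the 2 called were *Twist2* and *Twist1*, both of craniofacial mesenchyme. Both were lower, beside 0.594% of all genes called on that side. *Twist2* fell from 56.2 and 59.5 CPM to 24.5 and 30.9 CPM (limma log2 difference −1.05, SE 0.20, adjusted p = 0.00554). Without ca-*Acvr1(A11)* replicate 1 its adjusted p was 0.0661 in limma, within a range of 5.50e-05 to 0.0812 over the 16 alternatives, of which DESeq2 was the other without a call. *Twist1* fell from 113 and 205 CPM to 89.7 and 87.5 CPM (limma log2 difference −0.78, SE 0.19, adjusted p = 0.0412), with the control libraries far apart, as for *Id1* and *Id2*. The call of *Twist1* was lost in 5 of 16 alternatives. Without control replicate 2 the log2 fold change was −0.35 (adjusted p = 0.680 from limma, within a range of 6.61e-09 to 1.00), and the other 4 losses were with pseudocounts of 0.1 and 0.5, with at least 10 reads in every library and in DESeq2. Of the 11 genes 6 were above 0 and 5 below, from −1.12 to 0.69 with a median of 0.03. Unadjusted in limma 1 passed on the higher side (5.42% of all genes) and 3 on the lower (4.12% of all genes).

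**Figure D5:**
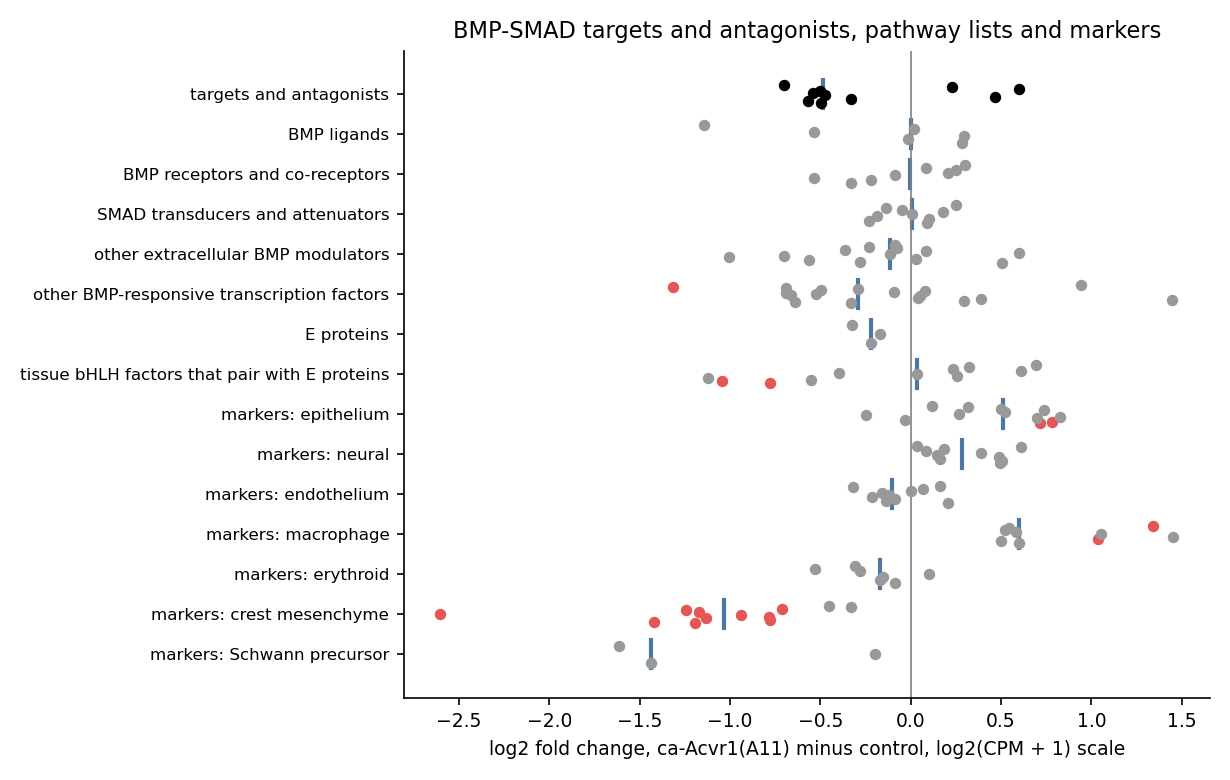
Log2 fold change (ca-*Acvr1(A11)* minus control, log2(CPM + 1) scale) of the 10 genes in black, of each BMP pathway list and of each set of cell type markers, with 1 point per gene, red points for genes at an adjusted p under 0.05 and a blue bar at the median. The medians lie at −0.49 for the 10 genes, between −0.29 and 0.03 for the pathway lists and at −1.04 for the markers of crest mesenchyme.

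Markers of cell types also differed between the groups. They too were chosen with earlier results of these data known, so their counts beside the shares of all genes are descriptions. Of all genes, 0.594% were called lower and 0.305% higher in limma. Unadjusted, 4.12% of all genes passed on the lower side and 5.42% on the higher. Of 12 markers of crest-derived mesenchyme, all above 0 in each library, 10 were called lower, and their summed level was 2248 and 2719 CPM in controls against 1259 and 1316 CPM in ca-*Acvr1(A11)* mutants. Without *Pdgfra*, which has values that are not whole reads, the sums were 2163 and 2605 CPM against 1245 and 1299 CPM. *Twist1* and *Msx1* belong both to these markers and to the lists above. Of 12 epithelial markers 2 were called higher (*Cdh1* and *Epcam*), with sums of 280.05 and 264 CPM against 433 and 398 CPM. Of 9 macrophage markers 2 were called higher (*Cx3cr1* and *Mrc1*), with sums of 52.1 and 52.8 CPM against 87.2 and 129 CPM, and *C1qa* was at 0 in control replicate 1. Neural markers had 0 of 10 called (5 higher unadjusted in limma) and sums of 1495 and 1442 CPM against 1849 and 1913 CPM. Endothelial sums were 205 to 223 CPM and erythroid sums 6707 to 8488 CPM over the libraries, with 0 called or passing unadjusted in limma. For Schwann cell precursors 3 of 5 markers were tested and 0 were called (2 lower unadjusted in limma), with sums of 20.4 and 22.6 CPM against 11.6 and 8.42 CPM. The median log2 fold change of the mesenchyme markers was −1.04, while those of *Id1*, *Id2*, *Id3*, *Smad6* and *Smad7* lay between −0.57 and −0.33. The part of these markers in the values of the 10 genes was not tested.

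The libraries were finally searched for genes whose pattern was most like that of the ID genes, taken as the mean of the centered log2(CPM + 1) of *Id1* to *Id4*. Over the 4 libraries, among 6560 other genes with a mean of at least 20 CPM, *Hdac2* (r = 1.00), *Zfyve21* (r = 1.00) and *Matr3* (r = 0.998) were nearest. *Hdac2*, a histone deacetylase gene, had 416 and 612 CPM in controls against 419 and 452 CPM in ca-*Acvr1(A11)* mutants. The shape common to these genes is a high value in control replicate 2 with the other 3 libraries close together. With 4 libraries such values are a description only, and 185 genes (2.82%) exceeded r = 0.95. Within the mean of the ID genes, *Id1*, *Id2* and *Id3* followed it with r = 0.98, 0.95 and 0.89, while *Id4* did not (r = −0.09). Of the genes outside that mean, *Smad7* followed it with r = 0.84, *Smad6* with 0.74, *Bambi* with 0.64, *Grem1* with 0.21, *Smad9* with 0.12 and *Nog* with −0.38.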

How the data were processed

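Total RNA of E11.5 NP tissues was isolated with TRIzol, made into libraries with Lexogen's QuantSeq 3′ kit and sequenced on an Illumina platform. The submitters' processing notes name mm10, STAR, featureCounts 1.6.4 and DESeq2 without roles. The authors deposited CPM values, in which the reads of each gene are divided by the library total, for 13577 genes, and the table also has 33470 empty lines. Library totals of 1956831 to 2408827 reads were recovered from the steps between values. Of 54308 values 99.921% were whole reads within 0.02 reads, and the other 43 were in 22 genes, none described as a target or antagonist. No value column was left unused (0).

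Groups followed the sample titles. log2(CPM + 1) was tested with limma 3.58.1 (mean-variance trend, no covariate) in the 12462 genes whose mean exceeded 1 CPM, and p was adjusted over all of them (Benjamini-Hochberg, threshold 0.05). On this scale the difference of a low gene is understated. Alternatives were pseudocounts of 0.1 and 0.5, no filter, at least 10 reads in every library, TMM, RLE and upper-quartile scaling, edgeR 4.0.16, DESeq2 1.42.0 and limma-voom on the recovered reads, a replicate block, each library left out, and whole-read values in place of the 43. R was 4.3.3 and Python 3.11.15, and the scripts were tested on simulated data.

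The 10 genes, the pathway lists and the markers were chosen with earlier results of these data known. Named were all 10, the genes called in each pathway list and otherwise at most 3 with the smallest p, *Acvr1*, and the 3 genes nearest to the ID pattern. Coordinates are from GENCODE's annotation of GRCm38, promoters from RefSeq's of GRCm38.p6. Intervals for counts are exact Poisson at 95% and, like the floor of 3 reads, cover counting error only.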

Additional observations from a re-analysis of the deposited data

How the results depend on the processing

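The directions of *Id1*, *Id2*, *Id3*, *Id4*, *Smad6*, *Smad7* and *Nog* were the same in all 16 alternatives. Of 158 values compared over the 10 genes, 147 kept their direction and side of the threshold, 7 were newly called and 4 turned sign. The sign turned for *Bambi* when control replicate 1 was left out (−0.50) or ca-*Acvr1(A11)* replicate 1 (−0.047), and when ca-*Acvr1(A11)* replicate 2 was left out for *Smad9* (0.080) and *Grem1* (0.0048). With 1 library left out the log2 values ran from −0.50 to 0.96 for *Bambi*, from −1.08 to 0.080 for *Smad9* and from −1.41 to 0.0048 for *Grem1*. Each rests on fewer libraries. Of the 10 genes 0 were called in limma, against 1 in edgeR and 0 to 3 with a library left out. Of the 67 pathway genes 3 were called, against 5 with TMM scaling, 5 with RLE scaling, 5 in edgeR, 1 in DESeq2 and 2 to 10 with a library left out. Over all genes 112 were called, against 39 in DESeq2 and 94 to 462 with a library left out, the largest count without control replicate 1. For other settings the cause was not tested. A library left alone in its group was assumed to vary like the others.

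With the replicate number as a block, limma called 229 genes in all, 1 of the 10 (*Id2*, adjusted p = 0.00897) and 5 pathway genes. The labels do not say that a number marks a shared litter or day, and there are 2 pairs. Same-numbered libraries deviated together with r = 0.067 over 12462 genes and r = 0.148 over the 6568 genes with a mean of at least 20 CPM. The numbers were not taken to pair the libraries, since neither labels nor the number of pairs settle it. TMM, RLE and upper-quartile scaling moved the median of all genes from 0.03 to between −0.00 and 0.01 and called 0 of the 10.

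Depth limits *Smad9* and *Grem1*, which had 0 to 8 reads per library and could not be tested with at least 10 reads in every library.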
